A study of Mus musculus with 12 samples.

Results

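Respiratory complex I (NADH:ubiquinone oxidoreductase) was followed through every gene whose symbol starts with Nduf in the count tables, which gave 45 of 24421 genes. By known role, 36 of the 45 encode structural subunits, 7 encode assembly factors named Ndufaf, and 2 (Ndufa4 and Ndufa4l2) encode proteins now assigned to complex IV. Of the 36 subunits, 16 belong to the matrix arm, 19 to the membrane arm and 1, Ndufab1, is the mitochondrial acyl carrier protein. The 7 core subunits that are encoded in the nucleus all lie in the matrix arm. In all, 43 of the 45 genes had enough reads to be tested. The subunits encoded by mitochondrial DNA were not analysed here.

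Complex I is the entry point of electrons from NADH into the respiratory chain. Its matrix arm oxidises NADH and passes the electrons along a chain of iron-sulfur clusters to ubiquinone, and its membrane arm pumps protons out of the matrix. Assembly factors bind intermediates of the complex while it is being built and are absent from the finished enzyme. The heart relies on oxidative phosphorylation more heavily after birth than before it. The roles named for single genes come from work on the bovine, human and mouse enzyme.

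The study sorted cardiomyocytes from postnatal day 1 hearts of CD1 background mice by YFP and by Mitotracker, a dye for mitochondrial content, and sequenced the mRNA of the sorted cells. Glut1 transgenic (Glut1 tg) mice carried aMHC-hGLUT1, aMHC-Cre and the R26+/YFP reporter, so that a cardiomyocyte promoter drives both the human glucose transporter and Cre. The wild-type (WT) hearts lacked the GLUT1 transgene and carried aMHC-Cre and the same reporter according to the study's design. Cells with the higher Mitotracker signal are called Tnnt2low and those with the lower signal Tnnt2high, after the flow cytometry of the study. There were 4 libraries of Glut1 tg Tnnt2low, 4 of Glut1 tg Tnnt2high, 2 of WT Tnnt2low and 2 of WT Tnnt2high. Each Glut1 tg heart (numbers 3, 4, 5 and 8) gave both populations, whereas all 4 WT libraries carry heart number 9. The WT libraries may therefore come from 1 heart or 1 pool, and their p-values then measure only the spread between these samples.

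The libraries held 4065306 to 9815069 reads assigned to genes, and the Nduf genes took 1.06% to 1.92% of them. Summed cardiomyocyte markers reached 122800 to 158300 CPM (reads of a gene scaled to a common library size) in every library. Tnnt2 itself was 12660 to 13980 CPM in Glut1 tg Tnnt2low against 16090 to 20830 in Glut1 tg Tnnt2high, and the WT populations overlapped (15740 and 16730 against 16250 and 17200). The other cardiomyocyte markers went either way between the Glut1 tg populations. Group means of Tnni3, Myl2 and Myl3 were lower in Tnnt2low. Those of Myh6 (65640 against 57560 CPM), Ryr2 (5773 against 3784 CPM) and Ttn (27420 against 23870 CPM) were higher, and Actn2 was similar (4625 against 4721 CPM). Endothelial markers (6 of 6 detected) summed to 7.08 to 64.1 CPM in Glut1 tg Tnnt2low and 26.0 to 208 CPM in Glut1 tg Tnnt2high. Fibroblast and matrix markers (7 of 7 detected) summed to 46.2 to 98.4 and 149 to 894 CPM in the same groups. Hemoglobin genes were at 0 in all 12 libraries, and Alas2, an enzyme of heme synthesis in red cell precursors, was found in 11 of 12 at up to 17.9 CPM, the highest in WT Tnnt2low replicate 1. Reads with multiple alignments, 28.2% to 40.9% of all records, were not counted for any gene. A count of 0 therefore does not show that hemoglobin RNA was absent. The number of reads outside annotated exons per gene read was 0.886 to 1.07 in Glut1 tg Tnnt2low, 2.26 to 2.63 in Glut1 tg Tnnt2high, 1.13 and 1.495 in WT Tnnt2low, and 1.83 and 1.51 in WT Tnnt2high.

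For the Nduf genes, 39 of 45 had a promoter sequence in RefSeq (250 bases before to 50 after the start, GRCm38.p6), 41 promoters in all. Motifs of 3 factors that are known to control genes of the respiratory chain were searched on both strands. The central bases of the NRF1 motif, CGCATGCG, were found in 4 of the 41 promoters (9.76%) against 1.87% of all 32851 promoters, in Ndufa11, Ndufa8, Ndufaf4 and Ndufaf5. The core of the GABPA (NRF-2) motif, CCGGAAG, was found in 5 of 41 (12.2%) against 8.86% of all promoters, in Ndufaf1, Ndufb6, Ndufb7, Ndufs3 and Ndufs8. The ERRalpha motif TCAAGGTCA was in 0 of 41 against 0.423%. The motifs do not overlap each other in the stretches shown. A match is a description of the letters and was not tested for binding. The starts are those of RefSeq. In GENCODE, Ndufs3 and Ndufb7 start further upstream, so their stretches below lie inside the annotated gene. Stretches with a match from 2 membrane arm subunits, 1 matrix arm core subunit and 1 assembly factor are shown from 5′ to 3′ with the motif in capitals.
Ndufa11 (GRCm38.p6, chr17:56717662-56717741, + strand, 100 to 21 bases before the start): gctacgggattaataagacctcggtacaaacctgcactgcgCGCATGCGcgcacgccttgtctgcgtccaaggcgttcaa
Ndufaf4 (chr4:24897953-24898032, + strand, 130 to 51 bases before the start): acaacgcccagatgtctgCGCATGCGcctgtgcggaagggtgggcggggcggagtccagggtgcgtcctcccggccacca
Ndufs3 (chr2:90904722-90904801, - strand, 80 to 1 bases before the start): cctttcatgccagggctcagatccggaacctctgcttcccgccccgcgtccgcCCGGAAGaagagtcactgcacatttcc
Ndufb7 (chr8:83566678-83566757, + strand, 80 to 1 bases before the start): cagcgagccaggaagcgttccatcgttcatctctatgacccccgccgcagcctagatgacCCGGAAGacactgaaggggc

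Some Nduf genes have near-identical copies elsewhere in the genome, and their counts are less certain where sequence is shared. Ndufs5, a membrane arm subunit on the intermembrane side, was listed at 0 reads in all 12 libraries, where the floor of 3 reads is 0.306 to 0.738 CPM. Its processed pseudogene BC002163 matches the Ndufs5 coding sequence at 317 of 319 bases and was listed with 30 to 94 reads. Of the 30-base words of Ndufs5, 47.6% occur in BC002163, and the cause of the Ndufs5 count of 0 was not tested. The copy held 3.84 to 9.32 CPM in Glut1 tg Tnnt2low and 14.5 to 23.1 CPM in Glut1 tg Tnnt2high. Both differing bases lie in the stretch of coding bases 61 to 120, counted from the A of the start codon, and are in capitals.
Ndufs5 (GENCODE vM21, GRCm38, gene at chr4:123712710-123718202, - strand): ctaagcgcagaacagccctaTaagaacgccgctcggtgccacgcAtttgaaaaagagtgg
BC002163 (chr16:42955631-42955949, + strand): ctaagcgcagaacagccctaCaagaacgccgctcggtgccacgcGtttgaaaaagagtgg

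Ndufb4, a membrane arm subunit, has its whole coding sequence of 390 bases repeated without a difference in the pseudogene Ndufb4c. The same coding bases 61 to 120 are shown for the pair.
Ndufb4 (chr16:37647170-37654453, - strand): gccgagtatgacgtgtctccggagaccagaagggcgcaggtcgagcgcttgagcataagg
Ndufb4c (chr15:73809507-73809896, - strand): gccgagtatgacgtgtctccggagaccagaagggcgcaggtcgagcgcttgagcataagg
Over all tested Nduf genes, 13 of 43 shared at least 5% of their 30-base words with transcripts of another gene, and Ndufs3 (50.3%), Ndufb4 (38.3%) and Ndufa12 (30.3%) shared the most. A further limit is that exons of 16 of the 45 genes overlap those of a neighbour, 14 of them on the opposite strand, and whether the counting used strand is not stated in the study's methods or labels. The overlap covered 39.0% of the exon bases of Ndufb6 and 30% of those of Ndufa13.

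Most subunit genes had higher levels than the assembly factors. Divided by transcript length, the mean level over the 12 libraries ranged from 19.4 to 1364 CPM per kilobase over 35 tested subunits (median 350.2) and from 12.3 to 46.2 over 7 assembly factors (median 19.3). The highest levels per kilobase included those of Ndufb10 (1364) and Ndufb9 (1013), both of the membrane arm. The lowest were those of the assembly factors Ndufaf3 (12.3), Ndufaf6 (17.7) and Ndufaf7 (18.6). In every group the means of Ndufb10 and Ndufb9 stayed above that of every assembly factor. Ndufa4l2, a hypoxia-responsive relative of Ndufa4, had 0 to 13 reads and was not tested.

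In Glut1 tg hearts most complex I genes were lower in Tnnt2low than in Tnnt2high cardiomyocytes. Of 43 tested genes, 36 fell and 1 rose (edgeR quasi-likelihood test, adjusted p under 0.05), against 8.33% of all 12252 tested genes lower and 8.42% higher. The median log2 fold change was -0.86 over the 35 subunits and -0.57 over the 7 assembly factors, against -0.01 over all genes. Every Tnnt2low library lay below every Tnnt2high library for 38 of the 43 genes, against 10.9% of all genes. The population sorted for the higher Mitotracker signal thus had the smaller share of complex I mRNA. In bulk samples fewer cells of a type and less RNA per cell cannot be told apart.

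**Figure D1:**
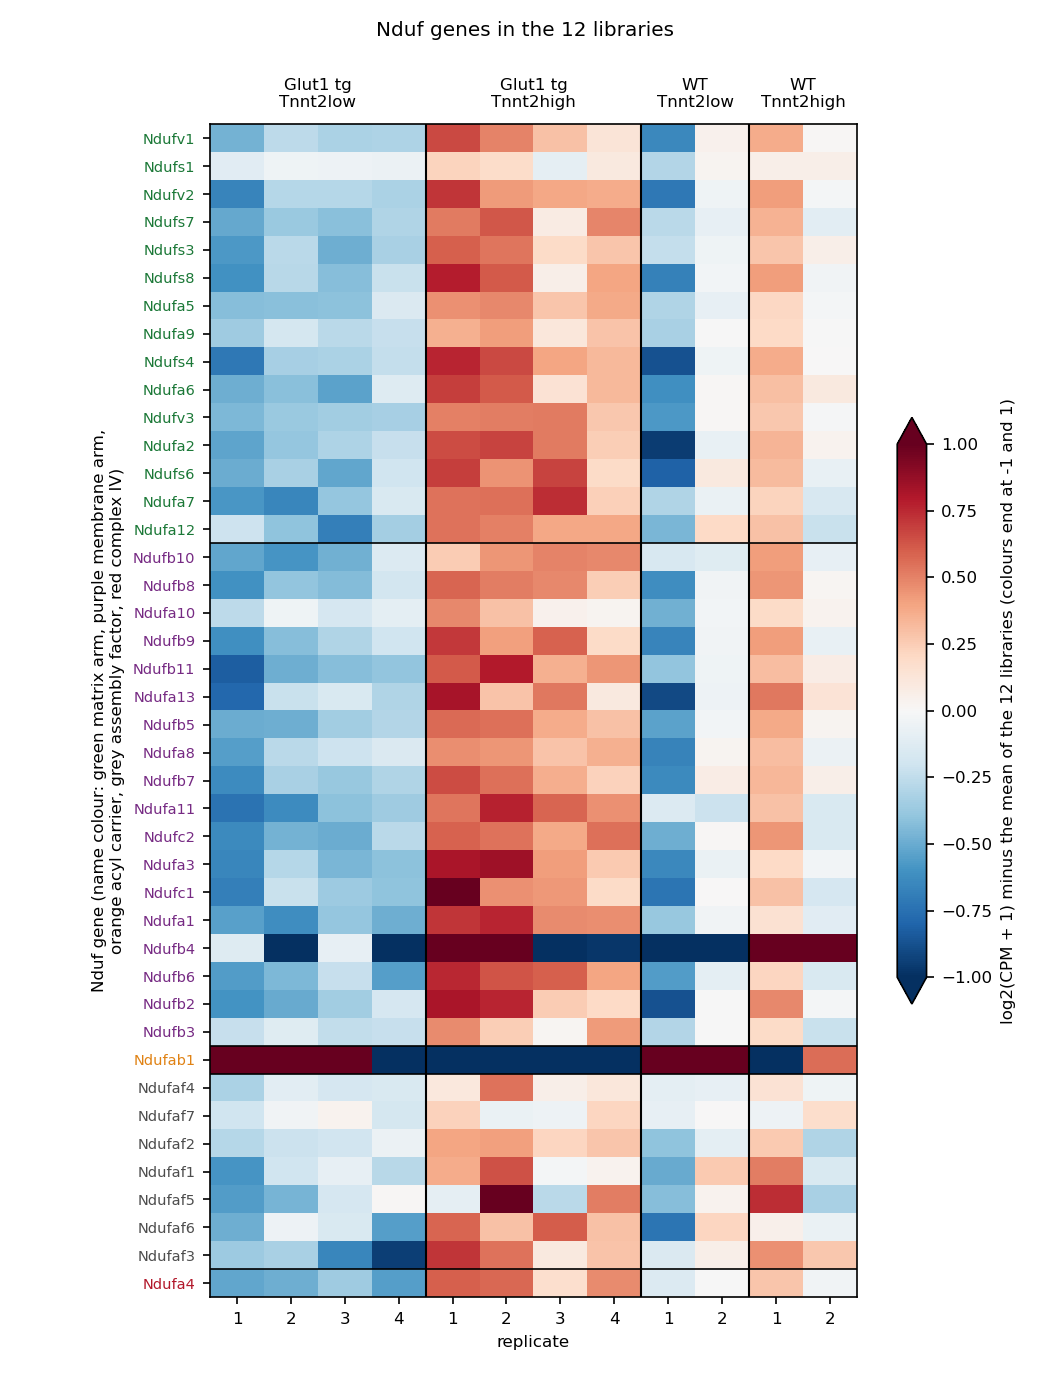
Each row is one of 42 of the tested Nduf genes and each column one of the 12 libraries; colour is log2(CPM + 1) minus the gene's mean over the libraries. Most subunit rows are blue in the 4 Glut1 tg Tnnt2low libraries and red in the 4 Glut1 tg Tnnt2high libraries, WT Tnnt2low replicate 1 is blue and replicate 2 is pale, and Ndufb4 and Ndufab1 go their own way.

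Core subunits of the matrix arm carry the flavin and the iron-sulfur clusters, and 6 of 7 fell, against 8.33% of all tested genes. Ndufv1, which binds NADH and the flavin, measured 681, 791.5, 761 and 764 CPM in the Tnnt2low libraries and 1495, 1334, 1158 and 1036 CPM in the Tnnt2high libraries. The groups did not overlap, and the gene fell by 0.74 ± 0.15 on the log2 scale (± standard error, adjusted p = 0.00575). Its neighbour in the electron path, Ndufv2, had group means of 472 ± 55.9 and 857 ± 103 CPM (SD, n = 4) and fell by 0.86 ± 0.15 (adjusted p = 0.00337). Ndufs3, a core subunit with 50.3% shared words, measured 143, 176, 152 and 170.2 CPM against 323, 309, 244 and 258 CPM and fell by 0.82 ± 0.13 (adjusted p = 0.00198). Ndufs7 and Ndufs8, which hold the iron-sulfur clusters nearest to ubiquinone, fell by 0.84 ± 0.13 and 0.87 ± 0.18. Their group means were 300.9 ± 18.1 and 540 ± 82.3 CPM for Ndufs7 and 152 ± 17.7 and 278 ± 57.9 CPM for Ndufs8. Ndufs1, the largest of the core subunits, did not pass the test, with 776 to 818 CPM against 792 to 983 CPM and a log2 fold change of -0.18 ± 0.10 (adjusted p = 0.257).

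All 9 accessory subunits of the matrix arm fell, against 8.33% of all tested genes. Their log2 fold changes ran from -0.55 in Ndufa9, which sits where the arms meet, to -0.97 in Ndufa7. Ndufa5 measured 401, 404, 406 and 487 CPM in Tnnt2low and 741, 752, 651 and 701 CPM in Tnnt2high, and fell by 0.74 ± 0.11 (adjusted p = 0.00185). Ndufs4, whose loss causes Leigh syndrome in people, fell by 0.94 ± 0.17 (adjusted p = 0.00375).

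In the membrane arm 16 of 18 tested subunits fell, against 8.33% of all tested genes, with a median of -0.90. Ndufa1 (chrX:37187588-37191163, - strand), a small single-pass subunit, had the smallest p of all Nduf genes. It measured 95.0, 89.7, 106 and 98.6 CPM in Tnnt2low and 228, 236, 193 and 191 CPM in Tnnt2high, a log2 fold change of -1.12 ± 0.13 (adjusted p = 0.000723). The lowest Tnnt2high library was above the highest Tnnt2low library by a wide margin. Ndufa11 measured 159, 172, 199 and 208 CPM against 385, 454, 397 and 365 CPM and fell by 1.12 ± 0.13 (adjusted p = 0.000723). Ndufb11, the other X-linked gene, measured 295, 373, 389 and 397 CPM against 800, 909, 668 and 710 CPM and fell by 1.09 ± 0.14 (adjusted p = 0.00117). Neither gene's groups overlapped. At least 100 reads of the X-linked Xist were held by 8 of 12 libraries, all 4 WT libraries among them, and at least 100 reads of the Y-linked Ddx3y by 4 libraries, all Glut1 tg.

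The modules of the membrane arm that pump protons hold most of the Ndufb subunits. Ndufb10 (chr17:24722060-24724478), the most abundant per kilobase, measured 670, 640, 689 and 877 CPM against 1151, 1310, 1360 and 1345 CPM and fell by 0.84 ± 0.13 (adjusted p = 0.00198). Ndufb6 measured 70.4, 76.1, 88.6 and 70.6 CPM against 177, 162, 159 and 138 CPM and fell by 1.05 ± 0.15 (adjusted p = 0.00141). Ndufb5 measured 226, 227, 250.1 and 261 CPM against 474, 467, 413 and 391.7 CPM and fell by 0.86 ± 0.13 (adjusted p = 0.00198). All 3 were without overlap between the populations. Ndufc2 measured 141, 158, 156 and 183 CPM against 332, 323, 288 and 324 CPM and fell by 0.99 ± 0.15 (adjusted p = 0.00198). The membrane arm subunits that did not pass were Ndufa10, with a log2 fold change of -0.36 ± 0.13 (adjusted p = 0.065), and Ndufb4. Ndufa4, once counted in complex I and now in cytochrome c oxidase, measured 152, 155, 169 and 148 CPM against 330, 325, 245 and 302 CPM and fell by 0.95 ± 0.12 (adjusted p = 0.0013).

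Of the 7 assembly factors 4 fell, against 8.33% of all tested genes. Ndufaf3, which joins the early quinone module together with Ndufaf4, had group means of 11.6 ± 2.40 CPM in Tnnt2low and 23.7 ± 4.63 CPM in Tnnt2high and fell by 1.03 ± 0.22 (adjusted p = 0.0066). Ndufaf6, needed for an early step, fell by 0.78 ± 0.23 (adjusted p = 0.0332). Ndufaf2, a relative of the subunit Ndufa12, fell by 0.53 ± 0.17 (adjusted p = 0.0403), and Ndufaf4 by 0.41 ± 0.13 (adjusted p = 0.0489). With the heart as a block both of these lost the call (adjusted p = 0.0617 and 0.0528). The group means in Tnnt2low and Tnnt2high were 14.8 ± 2.70 and 25.5 ± 3.20 CPM for Ndufaf6 and 26.9 ± 1.87 and 38.7 ± 2.55 CPM for Ndufaf2. Ndufaf4 had 83.6 ± 5.15 and 111 ± 18.7 CPM. Ndufaf1, a member of the membrane arm assembly complex, had a log2 fold change of -0.57 ± 0.23 (adjusted p = 0.102). Ndufaf5, a hydroxylase of Ndufs7, had -0.68 ± 0.30 (adjusted p = 0.142), and Ndufaf7, a methyltransferase, had -0.18 ± 0.15 (adjusted p = 0.438). The means of these genes that did not pass were 23.4 ± 3.49 and 34.8 ± 7.85 CPM for Ndufaf1, 17.3 ± 3.36 and 27.8 ± 11.8 CPM for Ndufaf5, and 30.4 ± 2.42 and 34.6 ± 4.02 CPM for Ndufaf7.

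The median of the subunits was below that of the assembly factors in every heart. Within the 4 Glut1 tg hearts the subunit median was -1.18, -0.90, -0.71 and -0.53 and the Ndufaf median -0.69, -0.65, -0.23 and -0.39. The difference between the medians was -0.49, -0.25, -0.48 and -0.14. Assembly factor transcripts were longer (median 1479 bases against 941) and fewer. Among genes of at least 1000 and under 2000 bases, the median was -0.85 over 12 subunits, of which 12 fell. It was -0.68 over 5 assembly factors, of which 2 fell, against 20.3% of all genes in this class. Over all lengths, assembly factors had lower counts (median 29.5 CPM against 314 CPM over the subunits), and the part of count level in the calls was not tested. A difference between these classes was not tested over samples.

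**Figure D2:**
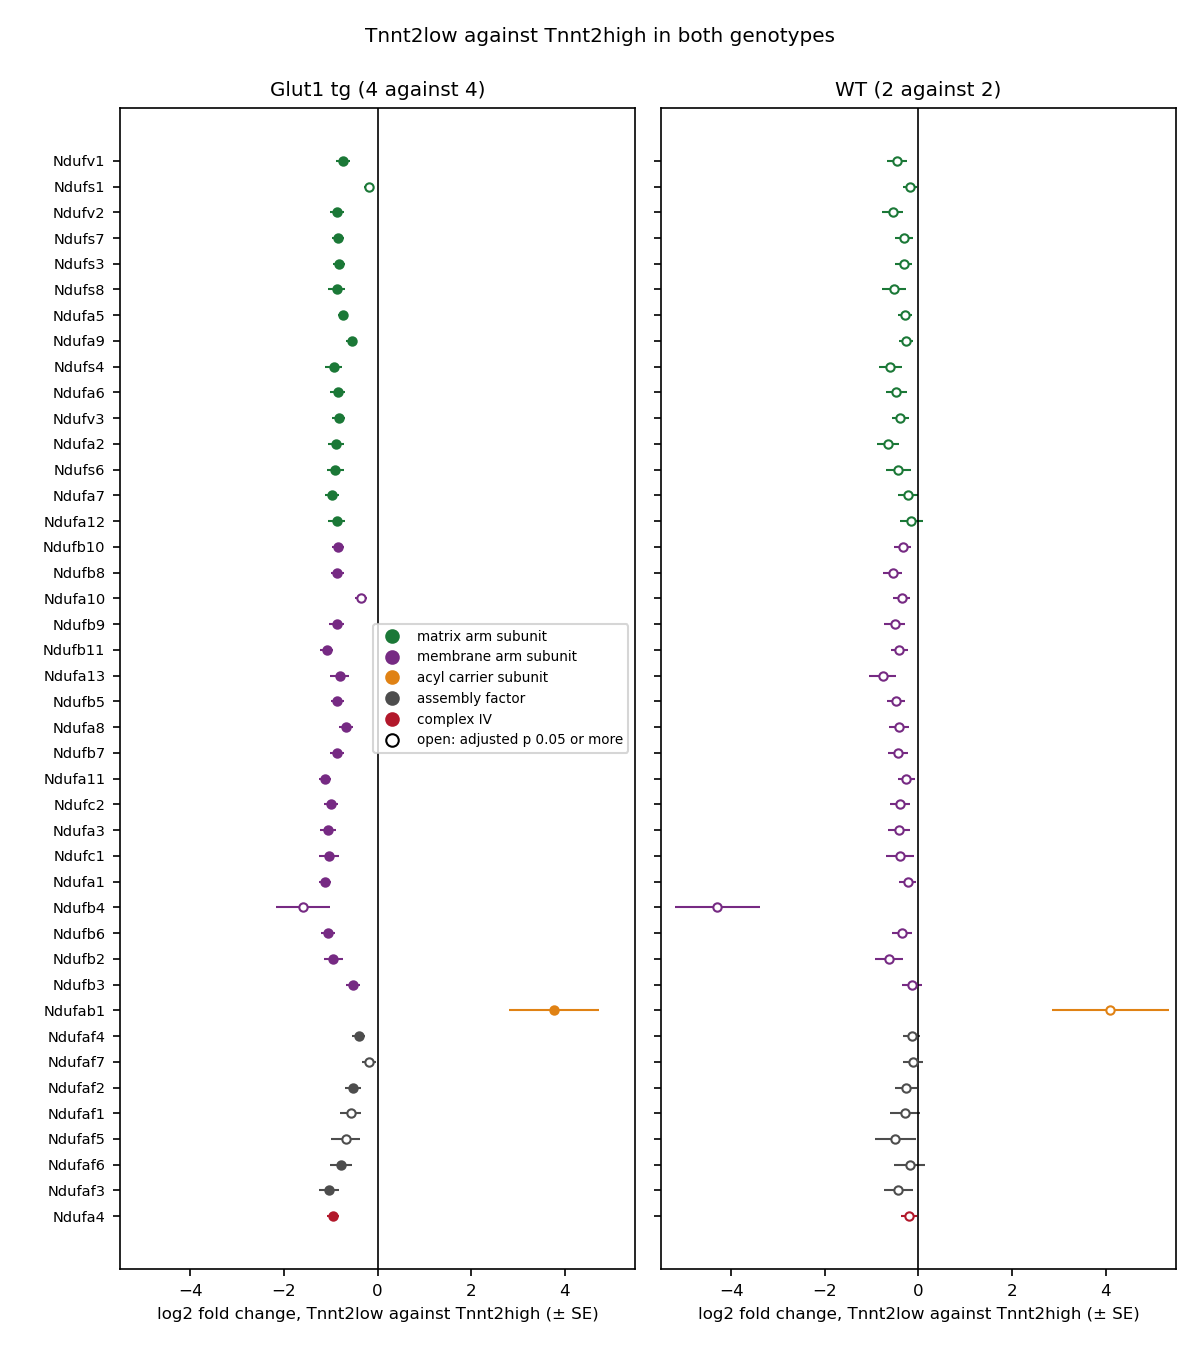
Points are log2 fold changes of Tnnt2low against Tnnt2high with their standard errors for 42 of the tested genes, for Glut1 tg (4 libraries against 4) and WT (2 against 2); filled points passed an adjusted p of 0.05. In Glut1 tg 35 genes are filled to the left of 0 and only Ndufab1 to the right; in WT no point is filled and 41 of 42 lie left of 0.

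Other genes of oxidative phosphorylation and of complex I assembly were read from lists of known members. Of 40 tested subunits of complexes II to V, 33 fell and 0 rose, against 8.33% of all genes lower and 8.42% higher. Their median was -0.87, which is close to that of the complex I subunits. Cox5a, a subunit of cytochrome c oxidase, fell by 0.95 ± 0.12 (adjusted p = 0.0013), and Atp5o, a stalk subunit of the ATP synthase, by 1.07 ± 0.15 (adjusted p = 0.00141). Of 11 further assembly factors without an Nduf symbol 2 fell, against 8.33% of all genes, and the median was -0.49. Timmdc1 fell by 0.71 ± 0.20 (adjusted p = 0.0274) and Tmem261 by 0.65 ± 0.15 (adjusted p = 0.0111). The gene 1810043H04Rik, an older symbol of Ndufaf8, measured 12.4 to 15.7 CPM against 22.1 to 37.3 CPM and fell by 1.15 ± 0.29 (adjusted p = 0.0149).

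The fold changes moved with transcript length across all genes. The median length was 1023 bases for the tested Nduf genes and 3204 for all tested genes. Over 12179 genes with a length, Spearman's rho between length and log2 fold change was 0.53 in Glut1 tg, and it was 0.60 over the 43 Nduf genes; genes of 1 library share its depth and are not independent. Among all genes of at least 500 and under 1000 bases the median was -0.72 and 40.3% were lower, beside 17 of 18 Nduf genes lower with a median of -0.88. Among all genes of at least 1000 and under 2000 bases the median was -0.43 and 20.3% were lower, beside 14 of 17 Nduf genes lower with a median of -0.82. Genes of 4000 bases or more had a median of 0.34, and no Nduf gene is that long.

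After an offset that removes the trend with length and GC content in each library, 2 of 43 Nduf genes were lower and 0 higher, against 0.813% of all genes lower and 0.394% higher. These were Ndufb8 (-0.73 ± 0.14, adjusted p = 0.0297) and Ndufb11 (-0.48 ± 0.11, adjusted p = 0.0494), both of the membrane arm. The median was -0.26 over the subunits and -0.21 over the assembly factors, and 39 of 43 values stayed negative. At an unadjusted p under 0.05, 18 genes were lower and 1 higher, against 9.08% and 8.6% of all genes. With the heart as a block as well, 6 genes passed, namely Ndufb8, Ndufb11, Ndufs4, Ndufv2 and Ndufv3 lower and Ndufab1 higher, against 2.15% of all genes lower and 1.63% higher. With the offset alone, 3 of 40 subunits of complexes II to V were lower and 0 higher, with a median of -0.25. Of the 11 further assembly factors 0 passed, and their median was -0.01. The offset takes out any difference that goes with length, whatever gave rise to it.

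**Figure D3:**
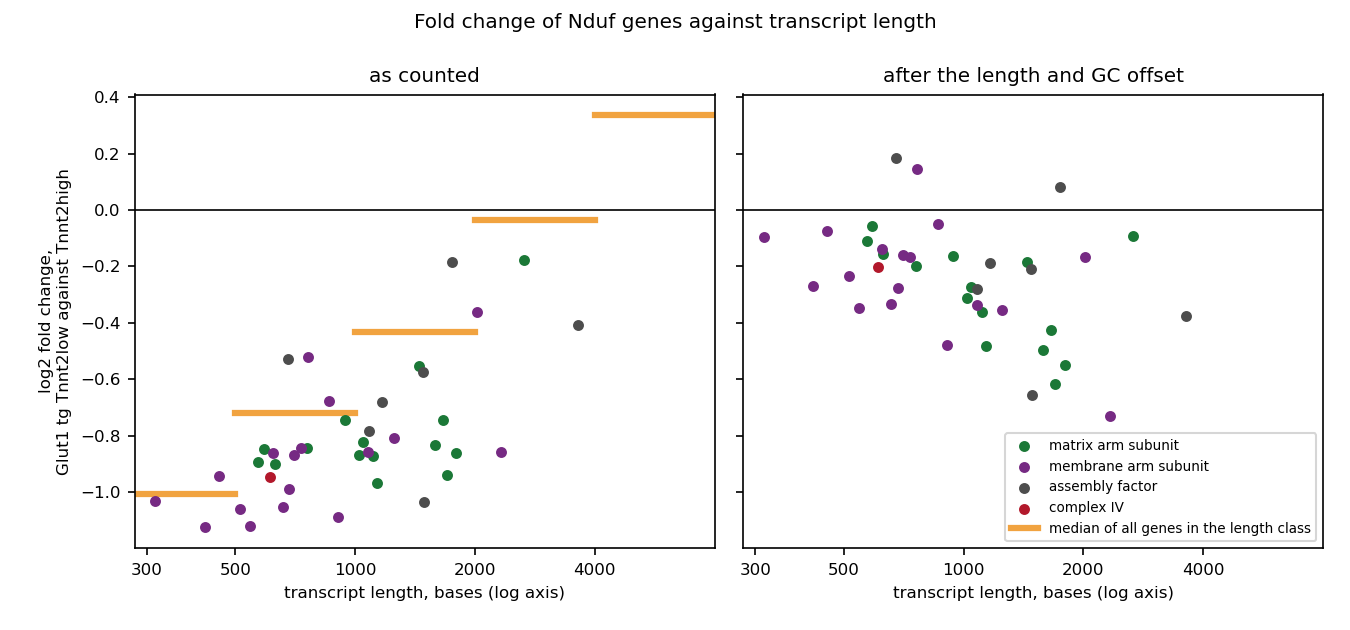
The log2 fold change of Glut1 tg Tnnt2low against Tnnt2high is plotted against transcript length (log axis) for 40 Nduf genes, without Ndufab1 and Ndufb4; orange bars are medians of all genes in 5 length classes. Short genes lie lowest on the left panel, most Nduf genes of 1000 to 2000 bases lie under the bar at -0.43, and on the right panel, after the offset, the points gather around a subunit median of -0.26.

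Reads outside annotated exons moved with the same contrast. Both populations of each Glut1 tg heart differed in this ratio (1.07 against 2.32, 0.956 against 2.63, 0.886 against 2.32 and 0.940 against 2.26), and the endothelial and fibroblast sums given above moved the same way. The smooth muscle and pericyte sum moved the other way (625 to 688 CPM in Tnnt2low, 445 to 539 CPM in Tnnt2high). In that list Abcc9 and Cspg4 had lower means in Tnnt2high, and Myh11, Pdgfrb and Rgs5 had higher ones. Leukocyte sums overlapped (1.15 to 4.57 and 0 to 6.46 CPM). The part of these measures in the lower Nduf counts was not tested. Scaling by the total gene count alone moved the median of all genes by 0.15 and the share of lower calls among all calls from 49.7% to 28.3%. With that scaling 32 Nduf genes were lower and 1 higher, against 5.47% of all genes lower and 13.8% higher. Ndufb3 and the assembly factors Ndufaf2, Ndufaf4 and Ndufaf6 lost the call, which left Ndufaf3 as the 1 called assembly factor of 7.

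**Figure D4:**
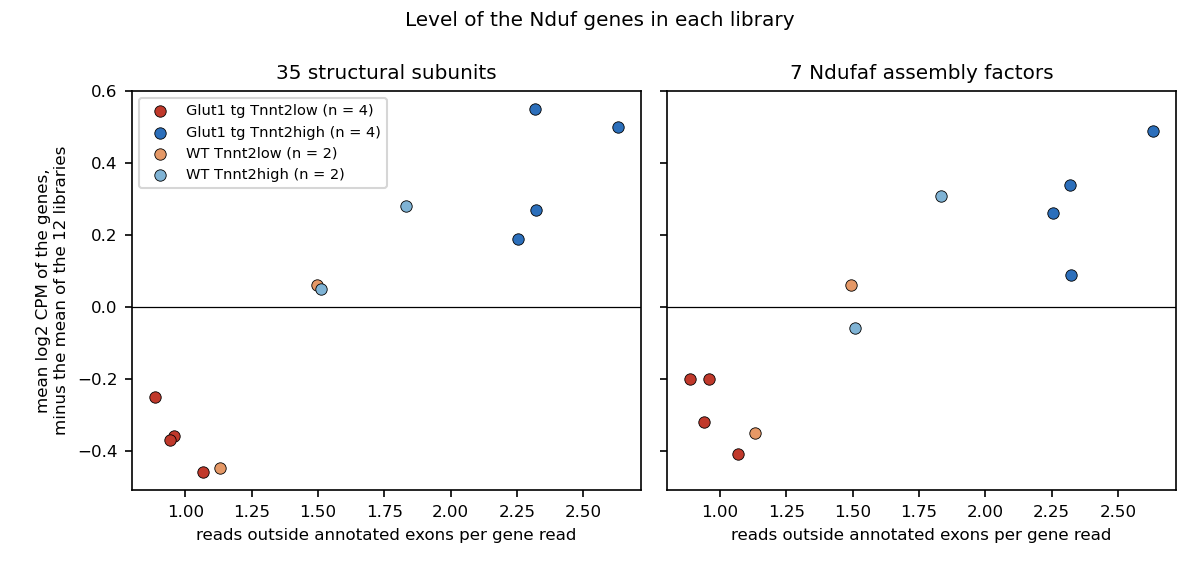
Each point is 1 of the 12 libraries; the x axis is the number of reads outside annotated exons per gene read and the y axis the mean log2 CPM of 35 subunits (left) or 7 assembly factors (right) minus the mean over libraries. Glut1 tg Tnnt2low lies at the lower left (subunits -0.46 to -0.25), Glut1 tg Tnnt2high at the upper right (0.19 to 0.55), and the replicate 2 libraries of both WT populations sit side by side (0.06 and 0.05).

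Wild-type hearts showed lower values of the same sign in 1 of 2 pairs. No Nduf gene passed in WT by edgeR or by DESeq2, where 0% of all genes passed by edgeR. At an unadjusted p under 0.05, 11 of 43 Nduf genes were lower and 1 higher, against 1.91% and 1.2% of all genes. The WT libraries did not overlap for 18 genes that were lower and 1 that was higher, against 14.9% and 15.3% of all genes. The median log2 fold change was -0.40 over the subunits and -0.26 over the assembly factors, and -0.09 over the subunits after the length and GC offset. Between the replicate 1 libraries 42 of 43 genes were lower in Tnnt2low, with a subunit median of -0.85. Between the replicate 2 libraries 20 of 43 were lower, with a subunit median of 0.01. The pairs differed in reads outside exons too, with 1.13 against 1.83 in the first and 1.495 against 1.51 in the second. Endothelial markers summed to 73.6 against 296 CPM in the first pair and 10.6 against 13.7 CPM in the second, and fibroblast and matrix markers to 152 against 462 and 107 against 103 CPM. Their part in the result was not tested. Without WT Tnnt2low replicate 2 the subunit median was -0.71, and without WT Tnnt2low replicate 1 it was -0.16.

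Apart from Ndufb4, which is described next, the lowest WT values were those of Ndufa13 and Ndufa2. Ndufa13, a subunit that is also linked to cell death, measured 222 and 402 CPM in Tnnt2low and 600.3 and 458 CPM in Tnnt2high (log2 fold change -0.76 ± 0.28). Ndufa2, an accessory subunit with a thioredoxin-like fold, measured 124 and 229 CPM against 305 and 247 CPM (-0.65 ± 0.24). In neither gene did the libraries overlap, and both had an adjusted p of 1. Among the core subunits the log2 fold change was -0.18 ± 0.14 in Ndufs1, -0.46 ± 0.21 in Ndufv1 and -0.55 ± 0.22 in Ndufv2. Ndufv1 overlapped between the populations, with 604 and 977 CPM against 1225 and 955.5 CPM.

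Ndufb4 and Ndufab1 varied widely between libraries of the same group. Ndufb4 measured 53.5, 16.7, 55.3 and 21.0 CPM in Glut1 tg Tnnt2low and 149.7, 236, 28.5 and 29.4 CPM in Glut1 tg Tnnt2high. It measured 15.3 and 22.9 CPM in WT Tnnt2low and 459 and 291 CPM in WT Tnnt2high. The Glut1 tg groups overlapped and the WT groups did not. The log2 fold change of Tnnt2low against Tnnt2high was -1.59 ± 0.58 in Glut1 tg (adjusted p = 0.0739) and -4.29 ± 0.91 in WT (adjusted p = 1). In a fit of the WT libraries alone the adjusted p was 0.00212, and without the filter on low counts it was 0.000183. In Glut1 tg the call was also made without the low-count filter (adjusted p = 0.00439) and when Tnnt2high replicate 3 or 4 was left out (-1.91, adjusted p = 0.0301 and 0.0294). Without Tnnt2high replicate 2, its highest Glut1 tg library, the value was -0.92 (adjusted p = 0.291), and with the length and GC offset it was -0.94 (adjusted p = 0.385). As shown above, its coding sequence cannot be told apart from Ndufb4c by reads of 50 bases.

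Ndufab1 (chr7:122085403-122101886), which carries the acyl chains of mitochondrial fatty acid synthesis, was the only Nduf gene higher in Glut1 tg Tnnt2low. It measured 42.9, 38.4, 164 and 2.30 CPM there and 3.83, 3.56, 7.44 and 3.32 CPM in Glut1 tg Tnnt2high. Replicate 4 of Tnnt2low lay below every Tnnt2high library, so the groups overlapped. The gene rose by 3.77 ± 0.96 on the log2 scale (adjusted p = 0.0158). The call was lost with the robust test (3.77, adjusted p = 0.0812), with the length and GC offset (3.69, adjusted p = 0.068) and without Tnnt2low replicate 3 (2.62, adjusted p = 0.0552). It was kept with the heart as a block (3.23, adjusted p = 0.00657) and with block and offset (3.18, adjusted p = 0.0142). In WT it measured 198 and 317 CPM in Tnnt2low and 1.22 and 27.7 CPM in Tnnt2high, a log2 fold change of 4.10 ± 1.24 (adjusted p = 1, and 0.0333 without the filter on low counts). Leaving out WT Tnnt2high replicate 2 gave 7.70, and leaving out replicate 1 of that group gave 3.21. Of its 30-base words 13.3% occur in transcripts of other genes.

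**Figure D5:**
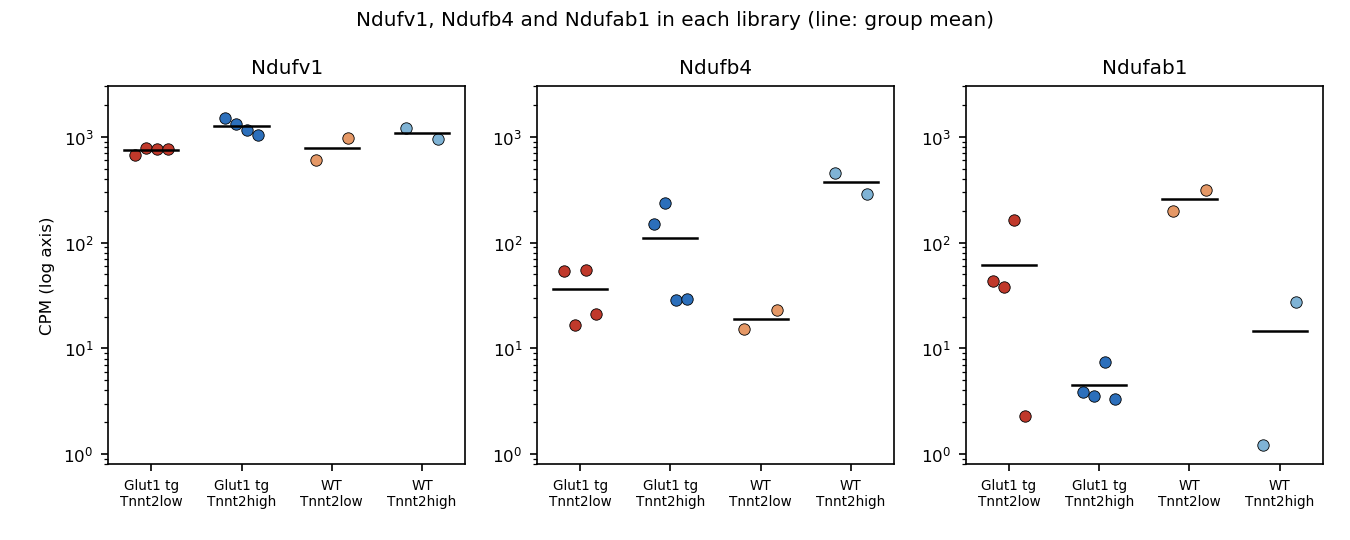
CPM of Ndufv1, Ndufb4 and Ndufab1 in each library on a log axis, with a line at each group mean (4 Glut1 tg and 2 WT libraries per population). Ndufv1 stays between 604 and 1495 CPM in all 12 libraries, Ndufb4 spans 15.3 to 459 CPM and Ndufab1 1.22 to 317 CPM.

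Glut1 tg and WT libraries were then compared within each population, and these comparisons share their libraries with the ones above. In Tnnt2low cells 0 of 43 Nduf genes passed by edgeR and 0 by DESeq2, against 0.00816% of all genes lower and 0% higher by edgeR. At an unadjusted p under 0.05, 3 were lower and 0 higher, against 1.16% and 0.93% of all genes. The libraries did not overlap for 9 genes that were lower and 0 that were higher, against 6.02% and 5.39% of all genes. With the length and GC offset 0 Nduf genes passed, against 0.00821% of all genes lower. The subunit median was -0.11 and the Ndufaf median -0.11. It turned to 0.21 over the subunits without WT Tnnt2low replicate 2 and was -0.36 without replicate 1. The lowest values were those of Ndufab1 (-2.06 ± 0.90), of the assembly factor Ndufaf3 (-0.54 ± 0.26) and of Ndufa4 (-0.41 ± 0.15). Ndufaf3 measured 13.3, 13.7, 10.7 and 8.57 CPM in Glut1 tg and 15.6 and 18.1 CPM in WT, without overlap. Ndufa4 measured 197 and 217 CPM in WT, above all 4 Glut1 tg values. The highest were those of Ndufb4 (0.94 ± 0.75), Ndufa10 (0.10 ± 0.16) and Ndufa2 (0.09 ± 0.21). Ndufa10, a subunit related to nucleoside kinases, measured 589 to 686 CPM in Glut1 tg and 506 and 691 CPM in WT. Ndufa2 measured 167 to 205 CPM in Glut1 tg and 124 and 229 CPM in WT. For both the WT values lay on either side of the Glut1 tg range.

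In Tnnt2high cells 41 of 43 Nduf genes were higher in Glut1 tg than in WT in sign, but 0 passed by edgeR and 0 by DESeq2, where 0% of all genes passed by edgeR. The subunit median was 0.29 and the Ndufaf median 0.08, and the subunit median was 0.13 with the length and GC offset. At an unadjusted p under 0.05, 8 were higher and 1 lower, against 2.17% and 3.13% of all genes. The groups did not overlap for 10 genes that were higher and 1 that was lower, against 5.9% and 6.12% of all genes. Ndufa1, at 191 to 236 CPM in Glut1 tg and 154 and 128 CPM in WT, had 0.59 ± 0.16 (adjusted p = 0.899). The gene is X-linked, and all 4 WT libraries held Xist and 0 held Ddx3y at 100 reads or more, whereas 4 Glut1 tg libraries held Ddx3y; the part of sex in this value was not tested. Ndufb6 measured 138 to 177 CPM in Glut1 tg and 121 and 93.7 CPM in WT, with 0.57 ± 0.18. Ndufc1, a small subunit of the membrane arm base, measured 165 to 328 CPM and 176 and 128 CPM, with 0.54 ± 0.27. Ndufa1 and Ndufb6 did not overlap and Ndufc1 did. The only values below 0 were those of Ndufb4 (-1.76 ± 0.66) and Ndufab1 (-1.73 ± 1.10), and that of Ndufab1 was 1.88 without WT Tnnt2high replicate 2.

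Whether the difference between the populations depends on genotype was tested as an interaction. By edgeR 0 of 43 Nduf genes passed, and 0 by DESeq2, where 0% of all genes passed by edgeR. The sign was negative in 41 of 43, that is, a lower Tnnt2low against Tnnt2high value in Glut1 tg than in WT, with a median of -0.38 over the subunits, -0.27 over the assembly factors and 0.01 over all genes. At an unadjusted p under 0.05, 14 were lower and 1 higher, against 2.2% and 2.32% of all genes. Ndufa1 had -0.90 ± 0.22 and Ndufa11 -0.86 ± 0.23, each with an adjusted p of 0.961. Ndufa4 had -0.75 ± 0.21, with 197 and 217 CPM in WT Tnnt2low and 263 and 212 CPM in WT Tnnt2high, which overlap. Ndufa7, an accessory subunit of the matrix arm, had -0.75 ± 0.27. It measured 63.8, 60.6, 73.1 and 86.2 CPM in Glut1 tg Tnnt2low and 140.3, 141, 161 and 113 CPM in Glut1 tg Tnnt2high, beside 77.7 and 91.4 CPM against 112 and 85.5 CPM in WT. Above 0 were only Ndufb4 (2.70 ± 1.01) and Ndufs1 (0.00 ± 0.18). With the length and GC offset the subunit median was -0.12. Without WT Tnnt2low replicate 2 it was -0.10, and without WT Tnnt2low replicate 1 it was -0.63.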

How the data were processed

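RNA of 12 libraries of sorted cardiomyocytes was analysed. The authors deposited unnormalised read counts, 1 table per library with 24421 genes and 5 totals. Per the labels the submitters' processing notes name HISAT2, FastQC, HTSeq and DESeq2 and the mm10 build, and neither they nor the methods state a strand setting. The totals rows were left out of library sizes; reads in genes were 16.2% to 36.4% of all records. The members and gene lists were chosen with earlier results of these data known.

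Groups followed the labels. Counts were filtered (filterByExpr, 12252 genes kept), scaled by TMM and fitted with edgeR 4.0.16 (quasi-likelihood test, R 4.3.3) in 1 model of 12 libraries and 4 groups, with Benjamini-Hochberg adjustment over all genes and a threshold of 0.05. Standard errors are the log2 fold change divided by the square root of F. CPM are TMM-scaled. DESeq2 1.42.0, other scalings, no filter, a robust test, fits of 2 groups, a heart block, a loess offset (span 0.3) for length and GC content, and leaving out each library were tried. For comparisons between genotypes the block was the replicate number instead of the heart. Lengths came from GENCODE vM21 for 98.4% of genes. Of the members, 1 gene entered all fits and counts but is not reported by name or drawn here. The NRF1 motif was first searched in a longer form, and the search was repeated with its central bases after that result was known. The scripts were tested on simulated data.

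The Glut1 tg replicate numbers mark the heart that gave both populations, and the same-numbered Glut1 tg libraries deviated together in every pair (correlation 0.11 to 0.23). Both WT pairs gave 0.27. With 2 libraries per WT population the deviations mirror each other, so the WT pairs must give the same value. Per-library values were given for the 10 called genes with the smallest p in each direction, and for the 3 highest and lowest in each comparison, the core subunits, the assembly factors and the X-linked genes by library or by group mean. Intervals from counting were not used, since replicate spread was larger; the common biological coefficient of variation was 0.314.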

Additional observations from a re-analysis of the deposited data

Results flagged for a closer look

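In 7 of 86 groups of 4 Glut1 tg libraries, 1 library stood apart from the other 3 by Dixon's criterion, which chance alone meets in about 1 of 20 groups. In Tnnt2low, Ndufa5 was 487 CPM in replicate 4, with the others at 401 to 406. Ndufb3 was 49.4 CPM in replicate 2, with the others at 45.3 to 45.7. Ndufv2 was 389 CPM in replicate 1, with the others at 492 to 504. In Tnnt2high, Ndufv2 was 1010 CPM in replicate 1, with the others at 793 to 825. Ndufab1 was 7.44 CPM in replicate 3, with the others at 3.32 to 3.83. Ndufaf4 was 139 CPM in replicate 2, with the others at 99.2 to 103. Ndufv3 was 364 CPM in replicate 4, with the others at 430 to 434.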

How the results depend on the processing

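Of the values of single named genes under the alternatives, 645 kept direction and side of the threshold, 15 reversed, 21 lost the call and 6 gained it. Many of the 645 had little room to change. Leaving out a library outside a comparison hardly moves its values, and genes far from the threshold have no call to lose. The tally is therefore no measure of stability. In Glut1 tg, 37 Nduf genes were called, against 8.33% of all genes lower and 8.42% higher. With the length and GC offset 2 were called, against 147 of all genes. With the offset and the replicate block 6 were called, against 460 of all genes. The replicate block alone gave 35 (without Ndufaf2 and Ndufaf4), against 2337 of all genes. DESeq2 gave 38, against 2520 of all genes. Without single Glut1 tg libraries 32 to 37 were called, against 1237 to 2025 of all genes. The subunit median in Glut1 tg was -0.255 with the offset, -0.256 with offset and block, and -0.924 to -0.81 without single libraries. The Ndufaf median was -0.209, -0.211, and -0.665 to -0.431. Without the genes of shared sequence 26 of 30 were lower, against 8.33% of all genes. In WT, Ndufb4 and Ndufab1 passed without the low-count filter (edgeR, adjusted p = 0.000183 and 0.0333). In a fit of 2 groups Ndufb4 passed (adjusted p = 0.00212). Counts over all genes under these settings are not given here. The WT subunit median was -0.092 with the offset, -0.104 with offset and block, and -0.713 to -0.156 without single libraries. The WT Ndufaf median was -0.537 to -0.051 without single libraries. Between genotypes in Tnnt2low the subunit median was -0.357 to 0.206 and the Ndufaf median -0.336 to 0.158. In Tnnt2high they were 0.124 to 0.49 and 0.042 to 0.438, and 0.071 over the subunits with offset and block. Between genotypes the block was the replicate number, which does not mark a shared heart of Glut1 tg and WT. The value with offset and block is therefore not adjusted for heart. For the interaction the subunit median was -0.122 and -0.121 with the offset and with offset and block, and -0.627 to -0.102 without single libraries, and the Ndufaf median -0.077, -0.084, and -0.651 to -0.019. Reversed values were those of Ndufa10 (-0.115 to 0.342 without single libraries) and Ndufa2 (-0.293 to 0.599) between genotypes in Tnnt2low, below 0 without WT Tnnt2low replicate 1, of Ndufab1 (-2.616 to 1.879) in Tnnt2high, above 0 without WT Tnnt2high replicate 2, and for the interaction of Ndufs1 (-0.002 with DESeq2-type factors, -0.001 by DESeq2, -0.154 to 0.18 without single libraries) and Ndufab1 (-3.933 to 0.562). The cause was not tested. With 2 WT libraries per population, the WT and genotype comparisons have little precision.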
